A study of Mus musculus with 6 samples.

Results

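Cytochrome P450 genes and the genes of 4 families of conjugating and aldehyde-oxidizing enzymes were followed in serrated polyps of the mouse cecum and in the tissue around them. The set holds every gene whose symbol starts with Cyp and a digit, Ugt1, Ugt2, Gsta, Gstm, Gstp, Gstt, Gstk, Gsto, Gstz, Mgst, Sult or Aldh, leaving out Sult1a1 and Cyp51, with at least 30 counts summed over the 6 libraries. These criteria kept 78 genes, of 199 with such a symbol and of 37991 gene identifiers in all. They were 27 cytochrome P450 genes, 9 UDP-glucuronosyltransferase genes, 5 sulfotransferase genes, 21 glutathione transferase genes and 16 aldehyde dehydrogenase genes. A filter on low counts let 65 of the 78 into the test, and the remaining 13 are described by their counts.

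The animals were 3 HBUS mice, numbered 1119, 1192 and 1199, sampled at 60 weeks of age for RNA sequencing of the cecum. Each animal gave 1 serrated polyp, a lesion with a saw-toothed crypt outline, and 1 piece of surrounding distal cecum labelled normal, so that 6 libraries formed 3 pairs. The HBUS strain is known for expressing, in gut epithelium, transgenic HB-EGF (a growth factor) together with US28, a chemokine receptor from a virus. Both tissues carried them, the labels name no agent or treatment, and no animal without the transgenes enters the comparison. Both tissues were whole pieces rather than sorted cells. The question was which of these enzyme transcripts differ between a polyp and the surrounding tissue of the same animal.

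Cytochrome P450 enzymes are heme proteins that insert oxygen into drugs, dietary chemicals, steroids, retinoids and fatty acids with electrons from NADPH. Conjugating enzymes then attach glucuronate (Ugt), sulfate (Sult) or glutathione (Gst), which makes the products soluble for export, and aldehyde dehydrogenases oxidize reactive aldehydes or make retinoic acid from retinal. In the intestine these enzymes sit mainly in the differentiated absorptive cells that face the lumen, and nuclear receptors and the aryl hydrocarbon receptor control many of their genes.

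Libraries held 6632645 to 13350119 counts, of which mitochondrial rRNA took 46.3% to 75.3%, which left 1852065 to 5096066 counts for other genes. Levels below are in CPM, the count divided by an effective library size that TMM normalization sets. On that scale 3 counts, the limit that a count of 0 allows, correspond to 0.214 to 0.676 CPM. The polyp library of mouse 1192 stood apart with counts for 12867 genes, against 15045 to 17301 in the others. The surrounding library of mouse 1199 had the highest share of mitochondrial rRNA (75.3%) and the fewest other counts (1852065). Its TMM factor was 0.593, against 0.973 to 1.43 in the others. All 10 general epithelial markers had log2 fold changes above 0 and 3 of them rose, with summed levels of 3466 to 6172 CPM in surrounding tissue and 5872 to 7898 CPM in polyps. Absorptive colonocyte markers moved the other way, with 10 of 10 below 0, 4 that fell (Slc26a3, Trpm6, Aqp8 and Car4) and summed levels of 8917 to 13132 CPM in surrounding tissue and 5972 to 9556 CPM in polyps. Goblet cell markers summed to 2802 to 3618 and 1392 to 2793 CPM, and smooth muscle markers to 269 to 287 and 70.5 to 149.5 CPM, in surrounding tissue and polyps. Fibroblast markers, of which 7 of 9 rose, summed to 78.9 to 189 and 321 to 701 CPM, and endothelial markers to 9.26 to 17.3 and 18.9 to 45.1 CPM. Macrophage, lymphocyte, mast cell, adipocyte and hepatocyte sums overlapped between the tissues. The mast cell genes Cpa3, Fcer1a and Cma1 had no count in any library, and the hepatocyte gene Alb had 5 counts, all in surrounding tissue of mouse 1119. In whole tissue, fewer cells of a type and less RNA per cell cannot be told apart, and the part of these marker differences in the enzyme results was not tested.

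Transcripts of 3 of the 65 enzyme genes tested fell in polyps and none rose. They were Cyp2c55 and Cyp3a13, which encode P450 enzymes for drugs and fatty acids, and Aldh1a1, a retinal dehydrogenase gene. Over all 10960 genes tested, 1.04% were lower, 1.72% were higher and 2.76% changed in either direction (paired edgeR quasi-likelihood test, adjusted p under 0.05 by Benjamini-Hochberg). DESeq2 called 7 enzyme genes lower and 2 higher, of 65 with an adjusted p, where it called 1.78% and 2.76% of 11039 genes (4.54% in either direction). With edgeR and a mouse left out, the count was 0 of 68 enzyme genes without mouse 1119 (0.766% of all genes), 7 of 63 without mouse 1192 (2.59%) and 2 of 69 without mouse 1199 (0.863%). Without the pairing it was 1 of 65 (0.794% of all genes), and without the filter on low counts 13 of 78 (3.52%). Before adjustment, p was under 0.05 for 16 enzyme genes lower and 5 higher. These are 24.6% and 7.69% of the 65, where all genes gave 6.27% and 8.29%. The median log2 fold change, polyp over surrounding tissue, was -0.39 for the 65 and -0.02 for all genes tested, and 45 of the 65 (69.2%) lay below 0, against 51.6% of all genes.

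Taken mouse by mouse, 23 of the 65 (35.4%) were lower in the polyp of all 3 animals, where 18.6% of all genes were. Only 6 (9.23%) were higher in all 3, namely Aldh1a3, Cyp2d26, Cyp26b1, Gsto1, Gsta4 and Gsta1, against 19.6% of all genes. All 3 polyp values lay below all 3 surrounding values for 11 enzyme genes (16.9%, against 8.58% of all genes) and above them for 4 (6.15%, against 9.84%). The 11 were Cyp2c65, Cyp3a13, Ugt1a2, Ugt2b5, Sult1b1, Sult1d1, Gstm5, Aldh1a1, Aldh1a7, Aldh2 and Aldh5a1, and the 4 were Cyp26b1, Gsto1, Gsta1 and Gsta4. Cyp26b1 was counted by the margin between 1.4207 CPM in surrounding tissue of mouse 1119 and 1.4221 CPM in the polyp of mouse 1199. It had 15 counts in each tissue of mouse 1119. These shares are descriptions.

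**Figure D1:**
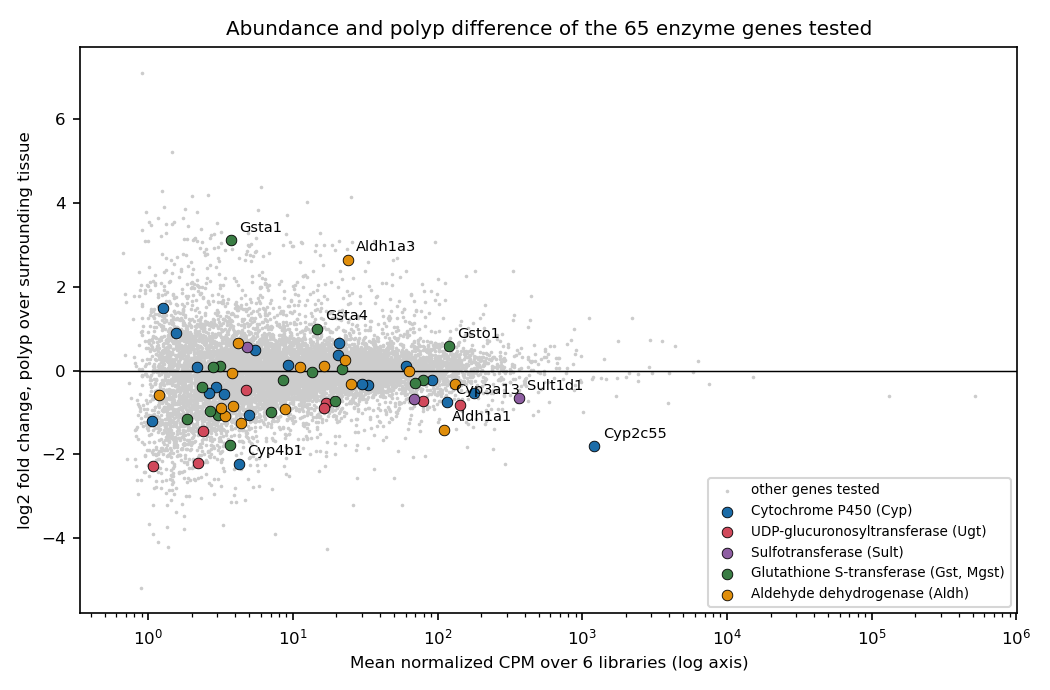
Each point is a gene tested: the x axis is its mean normalized CPM over 6 libraries on a log axis, the y axis its log2 fold change, polyp over surrounding tissue, with enzyme genes coloured by class and all other genes in grey. Cyp2c55 lies far to the right of the other enzyme genes and at -1.81, and 45 of the 65 coloured points lie below the line at 0.

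Cyp2c55 was the most abundant of the 78 genes and carried much of the class total. It encodes a P450 that oxidizes arachidonic and linoleic acid. In the order of mice 1119, 1192 and 1199, used for every triple of values here, Cyp2c55 (ENSMUSG00000025002) measured 949.7, 2556 and 1960.3 CPM in surrounding tissue and 273, 1205 and 336 CPM in polyps. Each polyp was below its own surrounding tissue, but the groups overlapped, since the polyp of mouse 1192 exceeded the surrounding tissue of mouse 1119. The means were 1822 ± 812 and 605 ± 521 CPM (SD, n = 3). The log2 fold change was -1.81 ± 0.26 (standard error calculated back from the paired test), 3.50-fold lower (adjusted p = 0.0153). Within mice the log2 differences, computed with 2 counts added, were -1.80, -1.08 and -2.54. The gene did not pass when the pairing was ignored (adjusted p = 0.438), nor without mouse 1119 (adjusted p = 0.0945). Cyp2c55 made up 70.8% ± 12.6 of summed P450 CPM in surrounding tissue and 47.6% ± 16.9 in polyps (n = 3 each).

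Cyp3a13 (ENSMUSG00000029727) encodes a member of the drug-oxidizing Cyp3a family and varied little between animals. Its levels were 149, 144.6 and 140.2 CPM in surrounding tissue and 85.8, 87.5 and 84.9 CPM in polyps. The groups were far apart relative to their spread, at 144.6 ± 4.39 and 86.1 ± 1.32 CPM (SD, n = 3). The log2 fold change was -0.75 ± 0.13, 1.68-fold lower (adjusted p = 0.0254). The call was lost at adjusted p = 0.116 without mouse 1119 and 0.153 without mouse 1199, and it was also lost without the pairing (adjusted p = 0.057).

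Aldh1a1 (ENSMUSG00000053279) encodes retinal dehydrogenase, which makes retinoic acid from retinal and also clears lipid aldehydes. It measured 194, 136 and 147 CPM in surrounding tissue and 42.2, 85.9 and 56.7 CPM in polyps, with no overlap. Means were 159 ± 30.8 and 61.6 ± 22.2 CPM (SD, n = 3), a log2 fold change of -1.41 ± 0.27 or 2.65-fold lower (adjusted p = 0.0358). The difference was smallest in mouse 1192, at -0.66 on the log2 scale, and larger in mice 1119 and 1199, at -2.20 and -1.37. Adjusted p was 0.077 without mouse 1119 and 0.193 without mouse 1199, and Aldh1a1 was the enzyme gene that still passed without the pairing (adjusted p = 0.0431).

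The start regions of these 3 genes are shown because they are the members that passed the test. Each is the stretch around an annotated RefSeq start (assembly GRCm38.p6), most of it upstream, 5′ to 3′ on the gene's strand, and capitals mark the motif matches found.
Cyp2c55, chr19:39006769-39007068, plus strand: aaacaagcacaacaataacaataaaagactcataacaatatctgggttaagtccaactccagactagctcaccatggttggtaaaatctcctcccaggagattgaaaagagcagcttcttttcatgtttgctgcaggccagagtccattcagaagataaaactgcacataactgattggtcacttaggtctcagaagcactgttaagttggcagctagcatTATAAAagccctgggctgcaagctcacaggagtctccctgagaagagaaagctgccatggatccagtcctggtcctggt
Cyp3a13, chr5:137921570-137921869, minus strand: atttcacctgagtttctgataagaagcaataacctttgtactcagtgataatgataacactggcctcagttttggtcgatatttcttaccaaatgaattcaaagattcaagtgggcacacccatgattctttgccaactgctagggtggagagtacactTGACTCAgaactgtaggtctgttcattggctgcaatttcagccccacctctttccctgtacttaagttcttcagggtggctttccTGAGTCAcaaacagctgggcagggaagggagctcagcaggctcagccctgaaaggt
Aldh1a1, chr19:20492333-20492632, plus strand: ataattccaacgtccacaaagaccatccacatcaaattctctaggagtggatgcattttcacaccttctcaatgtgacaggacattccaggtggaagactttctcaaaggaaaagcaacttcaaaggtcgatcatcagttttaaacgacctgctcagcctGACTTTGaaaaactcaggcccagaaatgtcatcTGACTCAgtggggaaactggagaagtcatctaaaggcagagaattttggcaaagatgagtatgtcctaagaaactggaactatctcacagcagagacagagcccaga
Aldh1a1, chr19:20601718-20602017, plus strand: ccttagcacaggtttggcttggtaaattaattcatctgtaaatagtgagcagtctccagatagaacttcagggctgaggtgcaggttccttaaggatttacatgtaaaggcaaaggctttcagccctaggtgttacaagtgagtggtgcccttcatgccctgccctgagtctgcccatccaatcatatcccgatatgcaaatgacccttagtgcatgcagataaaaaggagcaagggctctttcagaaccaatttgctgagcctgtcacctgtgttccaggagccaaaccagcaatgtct
Matches were searched on both strands, overlaps allowed, for 6 motifs. GCGTG is the aryl hydrocarbon receptor core. TGACNNNGC is the NRF2 antioxidant response element. AGGTCA is a core shared by nuclear receptors. TGANTCA is the AP-1 site. TATAAA is the TATA box, and CAAAGTC is the core for HNF4. Cyp2c55 held 1 TATA box match, which 13.6% of 32851 RefSeq start regions of the same length also hold. Cyp3a13 held 2 AP-1 matches, where 7.81% of those regions held at least 1. The upstream start of Aldh1a1 held 1 AP-1 match and 1 HNF4 core match, the latter present in 4.44% of regions, and its other start held no match. RefSeq start regions were matched for 67 of the 78 enzyme genes, 84 regions in all. Among the 84 the AP-1 letters occurred in 14.3% and the HNF4 core in 8.33%, while GCGTG occurred in 27.4% (32.4% of all regions), TGACNNNGC in 10.7% (12.4%), AGGTCA in 13.1% (16.3%) and TATAAA in 15.5%. A match is a run of letters and no measurement of binding, and no match says only that these letters are not in this window.

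**Figure D2:**
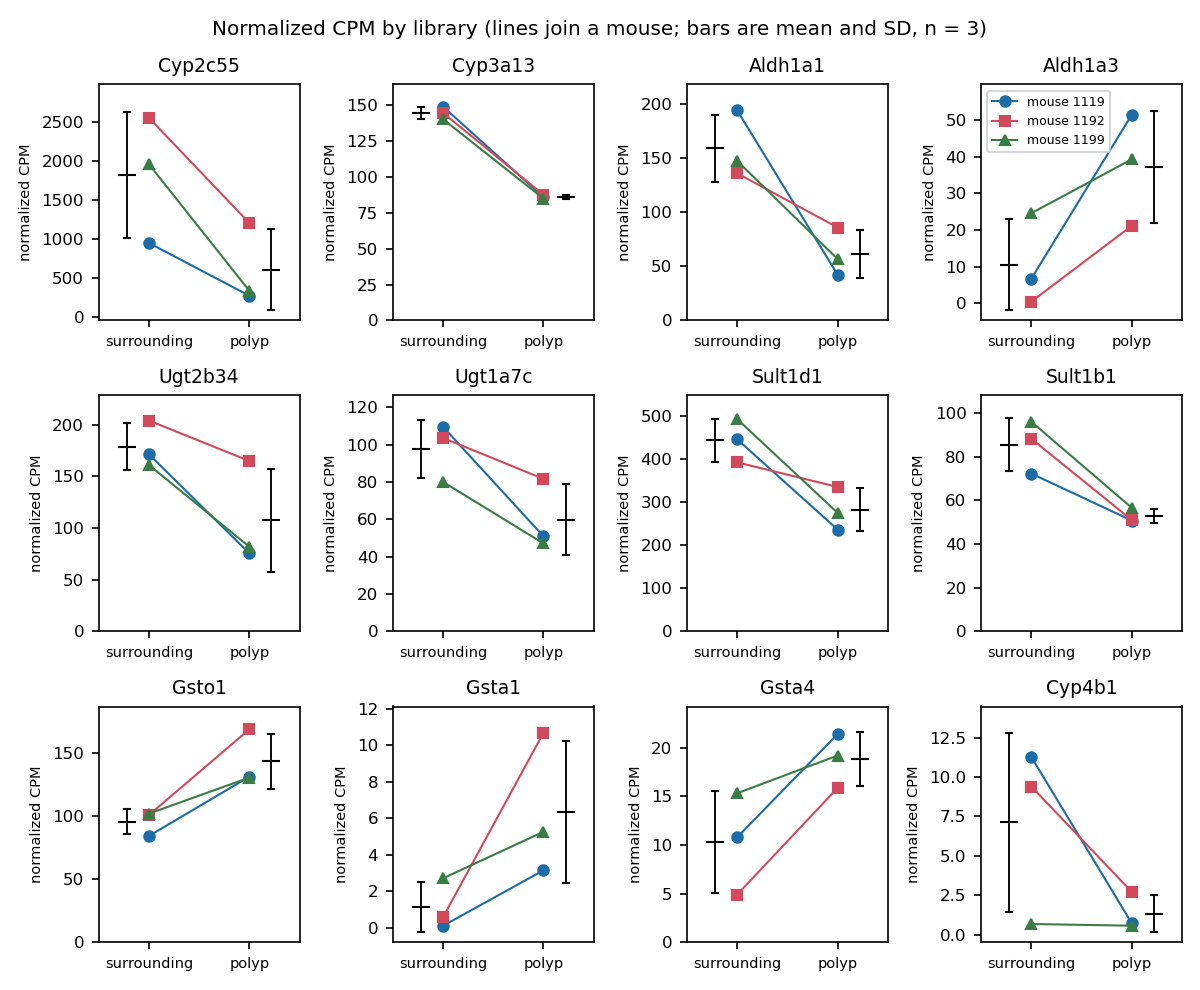
Normalized CPM (y axis) of 12 enzyme genes in surrounding tissue and polyp (x axis), with a line for each mouse and the mean ± SD (n = 3) beside each group. All 3 lines run downward for Cyp2c55, Cyp3a13 and Aldh1a1, while those of Aldh1a3, Gsto1, Gsta1 and Gsta4, which did not pass the test, run upward.

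Among the other cytochrome P450 genes, none of the remaining 18 tested passed by edgeR. The P450 class had 12 of 20 log2 fold changes below 0 (51.6% of all genes) with a median of -0.33. Before adjustment, 5 of the 20 were lower and 1 higher at p under 0.05 (6.27% and 8.29% of all genes). DESeq2 called 2 lower and 0 higher (1.78% and 2.76% of all genes). Cyp2c65, a neighbour of Cyp2c55 in the same gene cluster, had 215.6, 185.6 and 231.5 CPM in surrounding tissue and 128.8, 159.3 and 151.5 CPM in polyps. Those groups did not overlap, but the gene did not pass (log2 fold change -0.52 ± 0.15, adjusted p = 0.129). Cyp2c65 shares 20.6% of its 50-base stretches with other genes, chiefly Cyp2c66, so reads may have been split or dropped between them. Per kb of exon, Cyp2c55 had 8.58 ± 4.54 times the level of Cyp2c65 in surrounding tissue and 3.83 ± 3.01 times in polyps (n = 3 each).

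Cyp2j6, which encodes an epoxygenase for fatty acids, measured 98.2 ± 14.3 CPM in surrounding tissue and 85.8 ± 19.9 CPM in polyps (log2 fold change -0.21 ± 0.15, adjusted p = 0.597). Cyp4f14, which encodes a fatty acid and leukotriene hydroxylase, measured 59.2 ± 21.7 and 61.3 ± 8.90 CPM (log2 fold change 0.11 ± 0.25, adjusted p = 0.892). The tissues overlapped for both genes. Cyp4b1, another member of the fatty acid hydroxylase family, had 11.3, 9.40 and 0.676 CPM in surrounding tissue and 0.725, 2.71 and 0.569 CPM in polyps. The wide gap in mice 1119 and 1192 was absent in mouse 1199, whose surrounding tissue, with 3 counts, was already near the detection limit. Its log2 fold change of -2.22 ± 0.70 did not pass (adjusted p = 0.171). Cyp2d26 was named after its values were seen, as a P450 gene measured higher in each polyp: 26.2, 15.3 and 7.89 CPM in surrounding tissue and 32.9, 27.4 and 14.4 CPM in polyps (log2 fold change 0.66 ± 0.22, adjusted p = 0.202).

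Cyp26b1, which encodes a retinoic acid-degrading P450, was also named after its values were seen. It had 77 counts in all, with 1.42, 0.854 and 0 CPM in surrounding tissue and 1.81, 2.06 and 1.42 CPM in polyps (adjusted p = 0.634). P450 genes below the filter were Cyp2w1, Cyp2e1, Cyp2c68, Cyp2c23, Cyp21a1, Cyp3a25 and Cyp26c1. Of these, Cyp26c1, another retinoic acid-degrading enzyme gene, had all of its 31 counts in the polyp of mouse 1192. Cyp21a1, the steroid 21-hydroxylase gene, had 29 counts in the polyp of mouse 1119, 8 in that of mouse 1199 and none in the other 4 libraries.

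**Figure D3:**
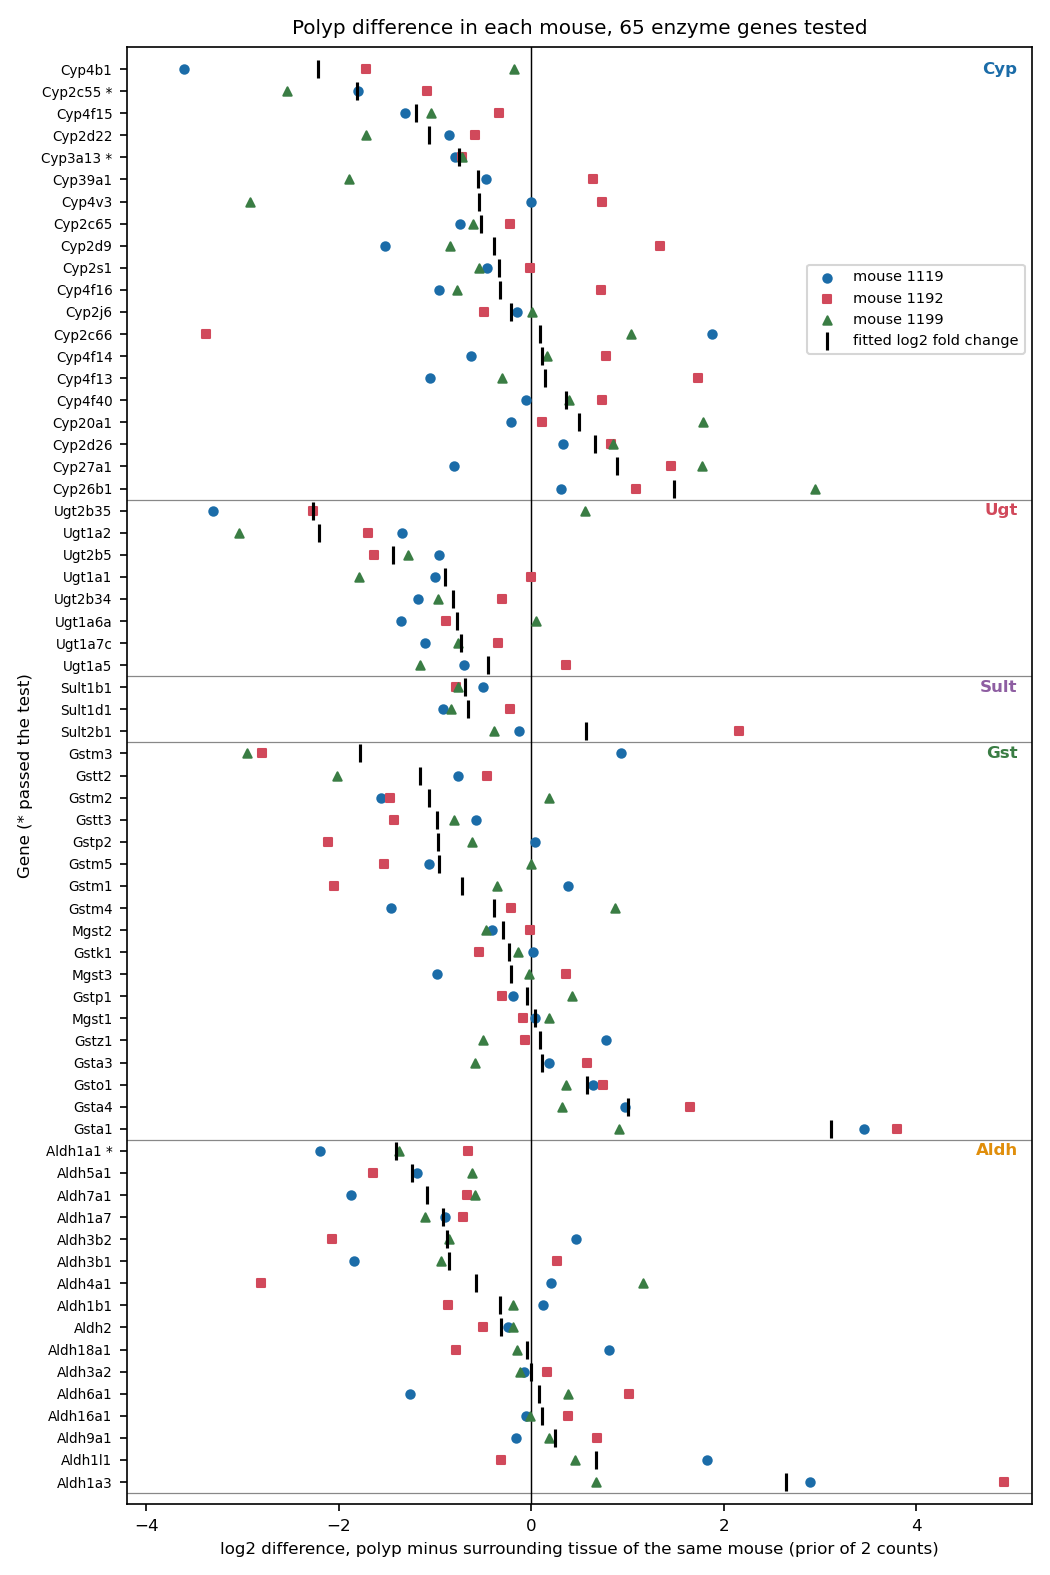
The x axis is the log2 difference, polyp minus surrounding tissue of the same mouse, for each of the 65 genes tested (y axis, grouped by class, asterisk for the 3 that passed), with a symbol for each mouse and a bar at the fitted log2 fold change. The Ugt bars all lie left of 0, between -2.27 and -0.45, and the Gsta genes Gsta1 and Gsta4 lie right of 0 in every mouse.

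UDP-glucuronosyltransferase genes lay on 1 side: all 8 tested had a log2 fold change below 0 (51.6% of all genes did), with a median of -0.86 and a range of -2.27 to -0.45. None passed the edgeR test. At p under 0.05 before adjustment 5 were lower and 0 higher (6.27% and 8.29% of all genes). Of the 5, 4 were Ugt1a genes, which share much of their sequence. DESeq2 called 2 lower and 0 higher (1.78% and 2.76% of all genes). These enzymes attach glucuronate to bilirubin, steroids, bile acids and drugs. Ugt2b34 had the highest level of the class, with 171.5, 204.1 and 161.2 CPM in surrounding tissue and 75.6, 165 and 81.9 CPM in polyps. The polyp of mouse 1192 overlapped the surrounding range, and the gene missed the threshold (log2 fold change -0.82 ± 0.18, adjusted p = 0.0587). Ugt1a7c had 109.5, 103.5 and 80.0 CPM in surrounding tissue and 50.9, 81.6 and 47.1 CPM in polyps (log2 fold change -0.73 ± 0.18, adjusted p = 0.0766). Its polyp from mouse 1192 was again the highest and overlapped the surrounding range. Without mouse 1192 both genes passed (adjusted p = 0.0139 for Ugt2b34 and 0.0259 for Ugt1a7c). Neither passed without mouse 1119 (0.247 and 0.320), without mouse 1199 (0.308 and 0.317) or without the pairing (0.307 and 0.222).

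Ugt1a1, the bilirubin-conjugating enzyme gene, had 18.1, 22 and 21.2 CPM in surrounding tissue and 8.95, 22 and 5.97 CPM in polyps. In mouse 1192 the tissues were level, while in mice 1119 and 1199 the polyp was lower by 1.00 and 1.79 on the log2 scale (fitted log2 fold change -0.90 ± 0.35, adjusted p = 0.277). With mouse 1119, 1192 or 1199 left out, adjusted p for Ugt1a1 was 0.571, 0.0474 and 0.722. Ugt1a2 had 3.69, 4.20 and 2.70 CPM in surrounding tissue and 1.33, 1.15 and 0.142 CPM in polyps, without overlap, and its log2 fold change of -2.20 ± 0.82 did not pass (adjusted p = 0.252). Ugt2b5 likewise had 3.03, 5.55 and 2.03 CPM against 1.45, 1.65 and 0.711 CPM (log2 fold change -1.44 ± 0.67, adjusted p = 0.384). Ugt1a6a, for phenol conjugation, and Ugt1a5 had log2 fold changes of -0.77 ± 0.30 and -0.45 ± 0.48 (adjusted p = 0.287 and 0.736). All Ugt1a genes use the same last exons, and 52.1% to 79.8% of the 50-base stretches of each are found in another gene. Their counts are therefore uncertain individually, and the 5 tested are not independent readings. Together the 6 Ugt1a genes summed to 149 ± 26.8 CPM in surrounding tissue and 89.8 ± 33.6 CPM in polyps.

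Sulfotransferase transcripts were dominated by Sult1d1 and Sult1b1, cytosolic enzymes for phenols, catecholamines and thyroid hormones. Sult1d1 had 446.8, 393 and 494 CPM in surrounding tissue and 237, 336 and 276 CPM in polyps. The groups did not overlap, with means of 445 ± 50.3 and 283 ± 49.9 CPM, and the test gave a log2 fold change of -0.66 ± 0.17 (adjusted p = 0.0892). With mouse 1119, 1192 or 1199 left out, its adjusted p was 0.347, 0.0371 and 0.373. Sult1b1 had 72.3, 88.2 and 96.0 CPM in surrounding tissue and 50.8, 51.0 and 56.6 CPM in polyps. With means of 85.5 ± 12.1 and 52.8 ± 3.30 CPM and a log2 fold change of -0.69 ± 0.15, it just missed the threshold (adjusted p = 0.0505). RLE normalization put it at adjusted p = 0.0475, and leaving out genes above 1% of a library at 0.0434. With a mouse left out it did not pass (adjusted p = 0.108 to 0.292), nor did it without the pairing (0.111). Sult2b1, a cholesterol and steroid sulfotransferase gene, had 4.09 ± 2.27 and 5.58 ± 2.09 CPM and a log2 fold change of 0.57 ± 0.61 (adjusted p = 0.737). Its polyp value was above surrounding tissue in mouse 1192 and below it in mice 1119 and 1199. Of the 3 sulfotransferase genes tested 0 passed by edgeR, 2 had p under 0.05 before adjustment and DESeq2 called 2, all lower. Over all genes, 6.27% were lower at p under 0.05 before adjustment, and DESeq2 called 1.78% lower. Sult1c2 and Sult6b1, with 84 and 33 counts in all, were not tested.

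Sult1b1, Sult1d1, Ugt2b34, Ugt2b35 and Ugt2b5 are neighbours in 1 cluster, taken as genes of the set less than 500 kb apart in the RefSeq table. All 5 had a log2 fold change below 0 (51.6% of all genes did), 4 were lower in all 3 mice (18.6% of all genes), and 3 had polyp values wholly below the surrounding values (8.58% of all genes). Their summed level was 714 ± 34.5 CPM in surrounding tissue and 445 ± 97.8 CPM in polyps (n = 3 each). The tested genes of 5 further clusters all lay below 0 as well. These were 5 Ugt1a genes, 5 Gstm genes, 4 of the Gstp and Aldh3b cluster, Aldh1a1 with Aldh1a7, and Gstt2 with Gstt3. In that order 3, 1, 0, 2 and 2 of them were lower in all 3 mice. At p under 0.05 before adjustment 4, 0, 0, 2 and 1 were lower (6.27% of all genes). Gsta1 and Gsta4, also neighbours, both lay above 0. The Cyp4f cluster had 2 members below 0 and 3 above, and the Cyp2c55, Cyp2c65 and Cyp2c66 cluster 2 below and 1 above. The cluster of Cyp2d9, Cyp2d22 and Cyp2d26 also had 2 below and 1 above. Of the neighbours Aldh9a1 and Mgst3, 1 lay below 0 and 1 above.

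Glutathione transferase genes had no common direction: 12 of 18 tested lay below 0 (51.6% of all genes did) and 6 above, with a median log2 fold change of -0.26. By edgeR 0 passed, with 1 lower and 3 higher at p under 0.05 before adjustment (6.27% and 8.29% of all genes). DESeq2 called 0 lower and 2 higher, Gsta1 and Gsto1 (1.78% and 2.76% of all genes). Gsto1 encodes an omega-class enzyme that reduces dehydroascorbate and arsenic species. It had 84.2, 100.7 and 101.9 CPM in surrounding tissue and 131, 169 and 130.4 CPM in polyps. Every polyp was above every surrounding sample, at 95.6 ± 9.90 against 143 ± 21.8 CPM, and the log2 fold change of 0.58 ± 0.14 did not pass by edgeR (adjusted p = 0.0832).

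All 3 tested alpha-class genes, whose enzymes detoxify lipid peroxidation products, had log2 fold changes above 0. That of Gsta3, named after its values were seen, was 0.11 ± 0.58 (adjusted p = 0.955). Its tissues overlapped, and it was lower in the polyp of mouse 1199. Gsta4, the gene of the enzyme for 4-hydroxynonenal, had 10.8, 4.91 and 15.3 CPM in surrounding tissue and 21.4, 15.9 and 19.2 CPM in polyps. There was no overlap, and the log2 fold change was 1.00 ± 0.31 (adjusted p = 0.163). Gsta1 had 0.0947 (1 count), 0.570 and 2.70 CPM in surrounding tissue and 3.14, 10.7 and 5.26 CPM in polyps (log2 fold change 3.11 ± 0.84, adjusted p = 0.108). With mouse 1119, 1192 or 1199 left out, its log2 fold change was 2.57, 2.23 and 4.42, and none passed (adjusted p = 0.292, 0.290 and 0.0921). Of the 50-base stretches of Gsta1, 90.5% occur in another gene, 75.7% in Gm3776, so this count may hold reads of its copies. The 5 tested mu-class (Gstm) genes lay below 0, with a median of -0.96, none with p under 0.05 before adjustment and none called by DESeq2. Gstm1, the most abundant of them, had 12.9, 56.0 and 9.69 CPM in surrounding tissue and 16.8, 13.3 and 7.54 CPM in polyps. Its log2 fold change of -0.72 ± 0.45 (adjusted p = 0.549) rested on mouse 1192, whose surrounding value was the highest, and was 0.0142 without that mouse. Gstm5 (log2 fold change -0.96 ± 0.60, adjusted p = 0.539) was counted above as not overlapping by the margin between 2.70 CPM in both tissues of mouse 1199.

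The microsomal enzymes encoded by the Mgst genes conjugate glutathione and reduce lipid peroxides in membranes. Mgst3 measured 86.5 ± 27.2 CPM in surrounding tissue and 72.8 ± 13.2 CPM in polyps (log2 fold change -0.22 ± 0.24, adjusted p = 0.750). Mgst2 measured 76.1 ± 0.734 and 62.5 ± 11.7 CPM (-0.30 ± 0.16, adjusted p = 0.464), and Mgst1 21.6 ± 6.23 and 22 ± 4.93 CPM (0.04 ± 0.20, adjusted p = 0.955). For all 3 the tissues overlapped. Gstt3 and Gstt2, neighbouring theta-class genes named after their values were seen, were each lower in all 3 mice (18.6% of all genes were). Neither passed (log2 fold changes -0.98 ± 0.36 and -1.15 ± 0.86, adjusted p = 0.242 and 0.614). Gstm6, Gstm7 and Gstp3 were below the filter.

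Aldehyde dehydrogenase genes were all tested, and 11 of 16 lay below 0 (51.6% of all genes did) with a median log2 fold change of -0.32. Aldh1a1 was called lower and 0 were called higher (1.04% and 1.72% of all genes). At p under 0.05 before adjustment 3 were lower and 1 higher (6.27% and 8.29%), and DESeq2 called 1 lower and 0 higher (1.78% and 2.76%). Aldh1a7, the neighbour and close relative of Aldh1a1, had 9.66, 11.3 and 14.0 CPM in surrounding tissue and 5.08, 6.83 and 6.40 CPM in polyps. These groups did not overlap, and the log2 fold change was -0.92 ± 0.31 (adjusted p = 0.193). Of the 50-base stretches of Aldh1a7, 7.49% are shared with Aldh1a1, and 3.06% of those of Aldh1a1 with Aldh1a7. Aldh1a1 was far more abundant, at 159 CPM in surrounding tissue and 61.6 CPM in polyps. Whether its reads entered the Aldh1a7 count was not tested. Aldh1a3, another gene for a retinal dehydrogenase, measured 6.72, 0.498 and 24.6 CPM in surrounding tissue and 51.4, 21.1 and 39.3 CPM in polyps.

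Aldh1a3 thus went against Aldh1a1 in each of the 3 mice. The means of Aldh1a3 were 10.6 ± 12.5 and 37.3 ± 15.2 CPM. The groups overlapped, since surrounding tissue of mouse 1199 exceeded the polyp of mouse 1192, and the log2 fold change of 2.65 ± 0.91 did not pass (adjusted p = 0.307). Without mouse 1199, the animal with the smallest difference (0.67 on the log2 scale, against 2.89 and 4.91), it was 3.85 and passed (adjusted p = 0.0378). It was 2.47 without mouse 1119, 1.75 without mouse 1192 and 1.93 without the pairing, and passed in none of these (adjusted p = 0.690, 0.317 and 0.602). Per kb of exon, Aldh1a3 made up 3.57%, 0.390% and 15.1% of the sum of Aldh1a1 and Aldh1a3 in surrounding tissue. In polyps this share was 56.6%, 20.8% and 42.5%, so that the ranges did not overlap. This share was chosen after the values were seen and was not tested.

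Aldh2, the mitochondrial enzyme gene for acetaldehyde, had 135.6, 161.4 and 144 CPM in surrounding tissue and 114.8, 114.1 and 125.7 CPM in polyps. The groups did not overlap, and the small difference did not pass (log2 fold change -0.31 ± 0.14, adjusted p = 0.350). Aldh3a2, the fatty aldehyde dehydrogenase gene, measured 63.7 ± 2.09 and 63.5 ± 6.89 CPM (log2 fold change -0.01 ± 0.15, adjusted p = 0.990). Aldh1b1, a mitochondrial relative, measured 28.8 ± 14.0 and 21.5 ± 2.72 CPM (-0.33 ± 0.24, adjusted p = 0.597). Aldh5a1, which removes succinic semialdehyde, had 6.63, 8.69 and 3.38 CPM in surrounding tissue and 2.78, 2.63 and 2.13 CPM in polyps (-1.24 ± 0.46, adjusted p = 0.251).

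**Figure D4:**
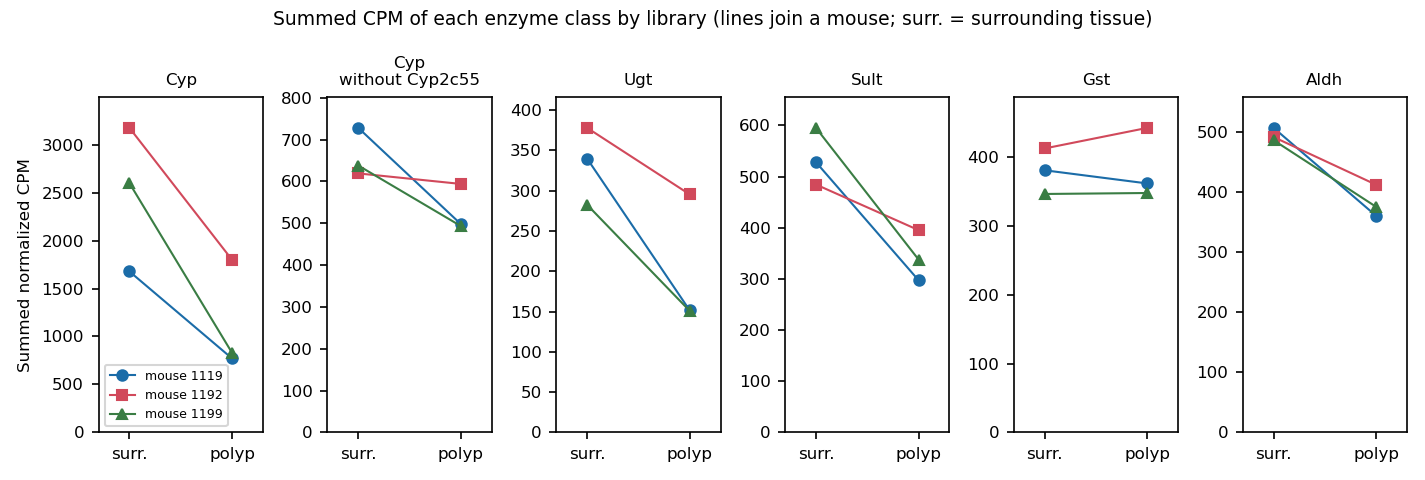
Summed normalized CPM (y axis) of the genes of each class in surrounding tissue and polyp (x axis), with a line for each mouse. The lines run downward in every mouse for Cyp, Ugt, Sult and Aldh, while the Gst sums stay between 346 and 443 CPM in both tissues.

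Summed over each class, the P450 genes had 1678, 3175 and 2598 CPM in surrounding tissue and 771, 1799 and 829 CPM in polyps. Without Cyp2c55 these sums were 662 ± 58.2 and 528 ± 56.9 CPM, so that 1 gene carried most of the difference. Ugt genes summed to 333 ± 48.0 and 199 ± 83.3 CPM, and Sult genes to 536 ± 55.8 and 344 ± 49.2 CPM. Aldh genes summed to 495 ± 10.7 CPM in surrounding tissue and 383 ± 26.7 CPM in polyps, and Gst genes to 380 ± 33.1 and 384 ± 51.1 CPM. The sums are descriptions over n = 3 libraries a group and were not tested.

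Compared per kb of exon, the level of Cyp2c55 was 913 ± 407 CPM per kb in surrounding tissue and 303 ± 261 in polyps, above every other gene of the set in both. Sult1d1 followed with 181 ± 20.5 and 115 ± 20.3 CPM per kb, and then Cyp2c65 with 109 ± 12.1 and 76.0 ± 8.23. In surrounding tissue Mgst3 (78.8 ± 24.8 CPM per kb), Cyp3a13 (48.9 ± 1.49), Gsto1 (47.3 ± 4.89) and Ugt2b34 (41.5 ± 5.2) came next. Cyp3a13 and Gsto1 did not differ beyond their spread there. In polyps Gsto1 stood at 70.9 ± 10.8 CPM per kb, near Cyp2c65 and Mgst3 (66.4 ± 12.0) and above Cyp3a13 (29.1 ± 0.448) and Ugt2b34 (24.9 ± 11.6). Aldh1a1 stood at 32.2 ± 6.24 and 12.5 ± 4.50 CPM per kb, Sult1b1 at 30.8 ± 4.36 and 19.0 ± 1.19, and Aldh2 at 28.7 ± 2.57 and 23.1 ± 1.27.

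**Figure D5:**
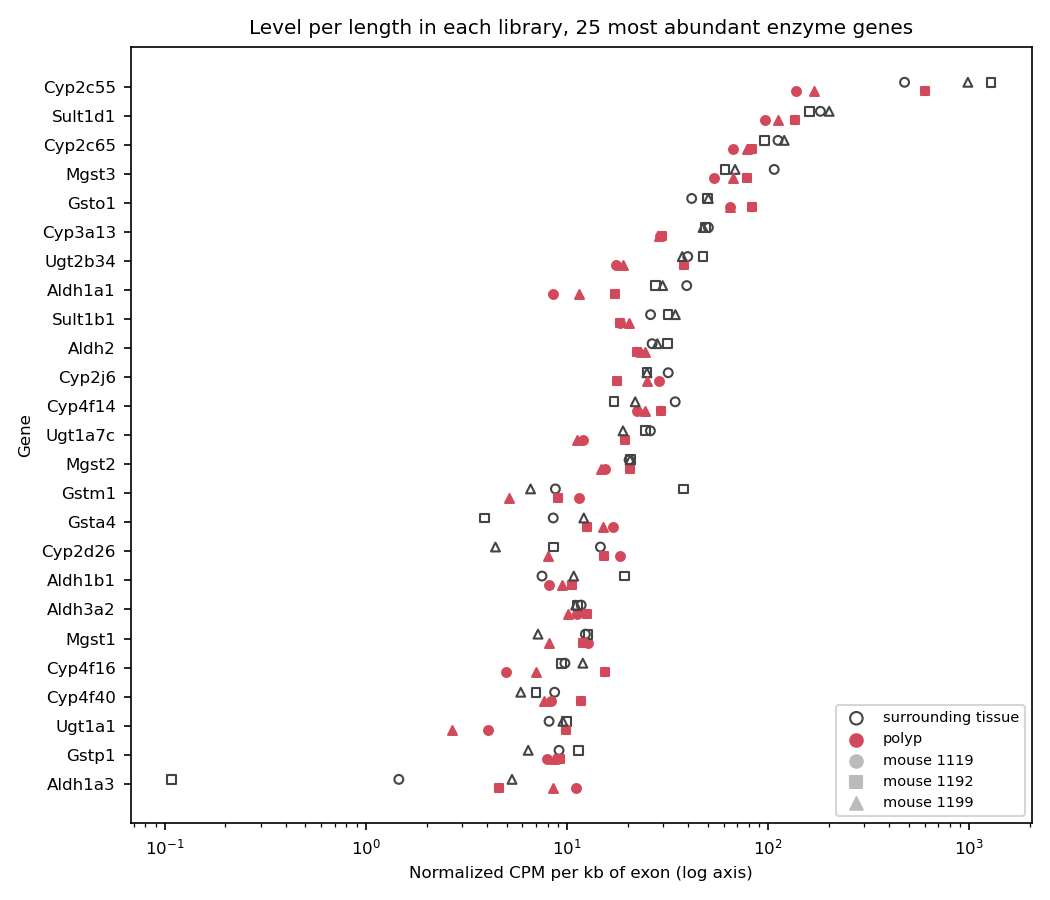
Normalized CPM per kb of exon (x axis, log scale) in each library for the 25 most abundant enzyme genes (y axis), open symbols for surrounding tissue and filled for polyps, with a shape for each mouse. Cyp2c55 has the highest values in both tissues, and the filled symbols of Cyp3a13 and Aldh1a1 lie left of the open ones.

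Genes that act with these enzymes were taken from lists of 78 genes, of which 63 were tested, 2 fell, 4 rose and the median log2 fold change was -0.14. Of all 10960 genes tested, 1.04% fell and 1.72% rose, with a median of -0.02. Among 15 tested regulators of xenobiotic enzymes, 1 fell and 0 rose. It was Vdr, the vitamin D receptor gene, at 126, 132 and 81.4 CPM in surrounding tissue and 56.3, 71.9 and 55 CPM in polyps (log2 fold change -0.87 ± 0.16, adjusted p = 0.0289). Ppara, for the fatty acid-sensing receptor, had -1.16 ± 0.49 (adjusted p = 0.327) and Cdx2, for the intestinal homeobox factor, -0.29 ± 0.16 (adjusted p = 0.472). Further regulators were named for their role after their values were seen. The log2 fold change was -0.07 for the aryl hydrocarbon receptor gene Ahr (adjusted p = 0.959) and -0.14 for the pregnane X receptor gene Nr1i2 (adjusted p = 0.822). It was -0.11 for Nfe2l2, the NRF2 gene (adjusted p = 0.774), and -0.19 for Hnf4a (adjusted p = 0.582).

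Of 7 genes for electron donors and other partner proteins of P450 enzymes 0 passed by edgeR. Before adjustment 0 were lower and 1 higher at p under 0.05, and DESeq2 called none. The log2 fold change of Por, the P450 reductase gene, was 0.27 ± 0.15 (adjusted p = 0.487), that of Cyb5r3 0.59 ± 0.22 (adjusted p = 0.238) and that of Pgrmc1 -0.27 ± 0.18 (adjusted p = 0.560). Of 12 genes that supply cofactors for conjugation, 1 fell and 1 rose. Papss2, whose product makes the sulfate donor PAPS, fell from 334, 467 and 286 CPM to 190.3, 221 and 161 CPM (log2 fold change -0.91 ± 0.14, adjusted p = 0.0153). Slc7a11, the cystine carrier gene that feeds glutathione synthesis, rose from 47.1, 17.7 and 30.9 CPM to 98.4, 69.9 and 50.5 CPM (log2 fold change 1.26 ± 0.24, adjusted p = 0.0328). Gsr, the glutathione reductase gene, missed the threshold by edgeR (0.65 ± 0.14, adjusted p = 0.0517). None of the 3 genes Vdr, Papss2 and Slc7a11 passed without the pairing (adjusted p = 0.0972, 0.0932 and 0.200). Vdr also did not pass without mouse 1119 or 1199 (adjusted p = 0.149 and 0.0801), and Papss2 without mouse 1199 (0.0687). Slc7a11 lost its call whichever mouse was left out (adjusted p = 0.0558 to 0.101).

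Among 6 tested efflux transporters 1 rose and 0 fell. Abcc4, for an exporter of conjugates and cyclic nucleotides, had 7.01, 5.48 and 6.09 CPM in surrounding tissue and 25.5, 27.2 and 17.3 CPM in polyps (log2 fold change 1.92 ± 0.28, adjusted p = 0.0153), and it was the gene of these lists that still passed without the pairing. Leaving out mouse 1119 or 1199 gave adjusted p = 0.071 and 0.056. Abcg2 and Abcc3, for other exporters of conjugates, had log2 fold changes of -0.79 ± 0.19 and -0.57 ± 0.22 (adjusted p = 0.0757 and 0.287), and for Abcg2 adjusted p ran from 0.0139 (without mouse 1192) to 0.385 (without mouse 1199). Of 15 other phase I and II enzyme genes tested 13 lay below 0 (51.6% of all genes did), with a median of -0.39. By edgeR 1 rose while 0 fell. The gene that rose was Akr1b8, for an aldo-keto reductase, from 13.3, 14.0 and 24.6 CPM to 40.6, 37.8 and 39.8 CPM (log2 fold change 1.26 ± 0.23, adjusted p = 0.0261). It missed the threshold without the pairing (adjusted p = 0.0609) and with any mouse left out (0.0607 to 0.146). Maoa, for monoamine oxidase A, and Fmo5, for a flavin monooxygenase, did not pass by edgeR (log2 fold changes -0.75 ± 0.17 and -0.76 ± 0.19, adjusted p = 0.0582 and 0.0908). Leaving out a mouse gave adjusted p from 0.0271 (without mouse 1192) to 0.260 for Maoa and from 0.0376 (without mouse 1192) to 0.354 for Fmo5. DESeq2 called 5 genes of all these lists lower and 5 higher, where it called 1.78% and 2.76% of 11039 genes. Among them were Abcg2, Maoa and Fmo5, lower, and Gsr, higher.

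Of 8 tested retinoid-handling genes outside the set 1 rose and 0 fell, with 4 log2 fold changes below 0 and 4 above. At p under 0.05 before adjustment 2 were lower and 3 higher. The 2 lower ones, Lrat and Dhrs3, were named after their values were seen. They did not pass (log2 fold changes -2.62 ± 1.03 and -0.88 ± 0.37, adjusted p = 0.284 and 0.309). Rdh10, whose product makes retinal from retinol, the step before the aldehyde dehydrogenases, rose from 46.0, 16.7 and 64.2 CPM to 113, 75.5 and 110.5 CPM (log2 fold change 1.41 ± 0.25, adjusted p = 0.0247). Ignoring the pairing gave adjusted p = 0.308, and leaving out mouse 1119 gave 0.115. Dhrs9, for another retinol dehydrogenase, did not pass (log2 fold change 0.67 ± 0.21, adjusted p = 0.167).

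At the threshold of 30 summed counts, the members just inside were Gstm7 with 34, Sult6b1 with 33 and Cyp26c1 with 31 counts. Just outside were Cyp4x1 with 25, Ugt2b36 with 25 and Aldh1a2, the remaining retinal dehydrogenase gene of the Aldh1a group, with 21.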

How the data were processed

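The deposited values are raw read counts per gene, 1 table per library, which the authors left unnormalized per the file headers and values. The submitters' processing notes name TopHat2 2.0.7, Bowtie 0.12.9 and HTSeq 0.5.3p9. Strand is not stated, and neither build nor annotation is given in the sources used here, so reads of overlapping or antisense genes may not have been told apart. Per the labels' protocols RNA was treated with MICROBEnrich, a kit that removes mammalian RNA, and a bacterial rRNA kit; the counts may describe the mouse RNA left after it. Reads carry no molecular identifiers, so floors of 3 counts cover counting error only.

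Names came from GENCODE M21 (32919 of 37991 identifiers) and exon lengths for CPM per kb from its union exons. Members and gene lists were chosen with earlier results of these data known. The test was the two-sided robust quasi-likelihood test of edgeR 4.0.16 (with limma 3.58.1 under R 4.3.3), with TMM normalization, filterByExpr (minimum count 10, 10960 genes kept) and the mouse as a block, with Benjamini-Hochberg adjustment over all genes tested. There were 2 residual and 6.63 prior degrees of freedom, the latter allowed by the robust fit to differ between genes. Standard errors were calculated back from that fit, as the absolute log2 fold change over the square root of the F statistic. The titles tie both samples to a numbered mouse and the series is described as paired; deviations of the same mouse correlated at 0.0719, 0.127 and 0.159. Libraries of a tissue were no copies of each other (chi-square over degrees of freedom at least 19.6). Named were members that passed; those whose groups did not overlap or whose absolute log2 fold change was at least 2, with at least 100 counts; in each class the 5 most abundant and the 3 with the smallest p; the genes around the count threshold; and, of the lists, genes that passed and the 3 smallest p. Of these, 1 is not reported here. Alternatives were RLE normalization, no genes above 1% of a library, no count filter, no pairing, DESeq2 1.42.0 and each mouse left out. The procedure was tested on simulated counts. Figures used Python 3.11.15.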

Additional observations from a re-analysis of the deposited data

How the results depend on the processing

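Enzyme genes that passed numbered 13 of 78 tested without a filter on low counts (10 lower, 3 higher; 753 of all 21370 genes), 9 of 65 with an adjusted p by DESeq2 (501 of 11039) and 0 to 7 with a mouse left out. The 0 was without mouse 1119 (edgeR, 68 tested, with 11 lower and 4 higher at p under 0.05 before adjustment), the 7 without mouse 1192 (63 tested), and 2 passed without mouse 1199 (69 tested). When the pairing was ignored (no mouse block), 1 enzyme gene passed, with 1 partner gene and 87 of all genes. Partner genes that passed numbered 13 of 77 without the filter (3.52% of all genes) and 10 by DESeq2 (4.54%). With a mouse left out they numbered 1 of 66 without mouse 1119 (0.766% of all genes), 8 of 63 without mouse 1192 (2.59%) and 1 of 66 without mouse 1199 (0.863%). All genes that passed numbered 83 to 281 with a mouse left out. The 3 called enzyme genes were all kept under RLE normalization, without genes above 1% of a library, without the filter, by DESeq2 and without mouse 1192. The sign of the log2 fold change turned for genes that did not pass. With a mouse left out, values ran from -0.14 to 0.0301 for Aldh3a2, -0.28 to 0.48 for Cyp4f14, -1.34 to 0.0142 for Gstm1, -0.0392 to 0.0661 for Mgst1, -0.56 to 0.16 for Mgst3, -0.29 to 1.04 for Sult2b1, -0.49 to 0.32 for Ahr and -0.37 to 0.0813 for Nr1i2. Ahr was also 0.0825 without the pairing. The enzyme median ran from -0.32 (no pairing) to -0.55 (without mouse 1192), and the cause of these shifts was not tested. A fit with a mouse left out has fewer samples. A gene with a count of 0 in a library cannot be told from one present at under 3 counts at this depth.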
